A study of Homo sapiens with 18 samples.

Results

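Keratins are the intermediate filament proteins of epithelial cells. A filament is built from obligate pairs of a type I and a type II keratin, and simple epithelia such as the luminal layer of the breast are known for KRT8 (type II) with its type I partners KRT18 and KRT19. Stratified and basal epithelia use other pairs, and the filaments are anchored to cell contacts by desmosomes and to the basement membrane by hemidesmosomes.

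The genes described here are the 10 keratins KRT7, KRT8, KRT13, KRT15, KRT18, KRT19, KRT23, KRT80, KRT81 and KRT86. They were chosen by name, with earlier results of these data known, and they are 10 of 58884 gene identifiers counted in the study. Of these, 5 are of type I (KRT13, KRT15, KRT18, KRT19 and KRT23) and 5 of type II (KRT7, KRT8, KRT80, KRT81 and KRT86). The type I members lie on chromosome 17 between 40922696 and 41528308 of GRCh38, except KRT18, which lies on chromosome 12 from 52948871 to 52952906, where it overlaps KRT8 on the opposite strand. The type II members lie on chromosome 12 between 52168996 and 52949954.

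The study concerns PARP inhibitors and cholesterol synthesis, and its RNA sequencing used T47D, an estrogen receptor-positive breast cancer line. There were 6 groups of 3 libraries, all taken after 48 hours. WT cells, labelled T47D AAV, received the vehicle DMSO, niraparib at 10 µM or olaparib at 10 µM. PARP1 KO cells, labelled T47D JL, received the same vehicle or the same compounds at the same dose and for the same time. There was 1 knockout line. The study's methods describe several dishes for each condition of its omics treatments. Neither they nor the labels tie each library to a dish of its own, so the P values may measure technical spread. Library totals were 30293678, 52251288 and 40400309 counts in WT with DMSO, 32091426, 51595251 and 38721980 in WT with niraparib, and 38707275, 37116848 and 31810723 in WT with olaparib. In PARP1 KO they were 37125006, 30843001 and 37601647 with DMSO, 28890837, 32462939 and 42054783 with niraparib, and 39770851, 40873768 and 29760855 with olaparib.

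PARP1 itself (chromosome 1 from 226360691 to 226408093), which encodes the enzyme the compounds inhibit, was read first. In CPM, the counts scaled to a common library total, it was at 344, 368 and 366 in WT with DMSO, 327, 313 and 328 with niraparib, and 336, 346 and 340 with olaparib. In PARP1 KO it was at 24.6, 24.1 and 24.4 with DMSO, 23.8, 22.9 and 26.4 with niraparib, and 24.1, 27.1 and 25.6 with olaparib. Every PARP1 KO library was below every WT library. The PARP1 KO mean was 7.27% of the WT mean (24.8 ± 1.34 against 341 ± 17.9 CPM, mean ± SD, 9 libraries each). An exact permutation test gave a 2-sided P = 4.11e-05, the smallest that 9 against 9 libraries can give. The 9 libraries of a genotype pool its treatments, so this P measures no spread between knockout lines.

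The labelled cell type was checked against marker genes. From here on, library totals behind CPM are scaled by TMM, a factor that removes differences in composition between libraries. All 9 luminal breast epithelial markers were at a mean of at least 1 CPM, with a summed level from 9463 to 15169.8 CPM over the 18 libraries, and KRT8 was the most abundant. This list holds KRT8, KRT18 and KRT19 themselves. Its sum was from 13010.2 to 13631 CPM in WT with DMSO, from 9463 to 10473.5 CPM with niraparib and from 10359.9 to 10802 CPM with olaparib. The PARP1 KO sum was from 14481 to 15169.8 CPM with DMSO, from 13443 to 13737 CPM with niraparib and from 12423 to 13412 CPM with olaparib. Of 7 basal or myoepithelial markers, 4 reached a mean of 1 CPM over the 18 libraries, with a summed level from 45.5 to 63.0 CPM. In WT this sum was higher with treatment, from 48.9 to 52.1 CPM with DMSO, from 62.6 to 63.0 CPM with niraparib and from 58.8 to 61.6 CPM with olaparib. In PARP1 KO it was from 45.5 to 50.5 CPM with DMSO, from 49.0 to 53.0 CPM with niraparib and from 50.7 to 57.6 CPM with olaparib. The part of these markers in the keratin values was not tested. ACTA2 led them at 43.1 CPM on average, while KRT5, KRT14 and KRT17 were below 1 CPM on average, KRT17 with 2.08 to 2.94 CPM in the WT niraparib libraries. Of 6 fibroblast markers only COL1A1 reached 1 CPM (109.9 CPM on average), and the summed level ran from 89.1 to 154 CPM. The 3 endothelial markers summed to at most 0.233 CPM in any library, and PECAM1 and CDH5 had 3 counts or fewer everywhere. The 3 leukocyte markers summed to at most 0.196 CPM, with CD3E at 3 counts or fewer in every library. In bulk RNA, fewer cells with a keratin and less of its RNA per cell cannot be told apart.

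Some libraries stood apart from the others of their group, and KRT15 and KRT13 moved with them. Over 11010 genes at 5 CPM or more, keratins left out, a single component held 51.5% of the variance between replicates (the next held 9.63%). The libraries at its low end were WT DMSO replicate 1 (score -0.397), WT niraparib replicate 2 (-0.383), PARP1 KO niraparib replicate 3 (-0.385) and PARP1 KO olaparib replicate 3 (-0.291). Over the 18 libraries, deviations of KRT15 from its group mean had a Pearson r of -0.973 with the score, and 110 of the 11010 genes had an r as low or lower. For KRT13 the r was -0.914. It was 0.807 for KRT7, 0.809 for KRT23, 0.720 for KRT80 and 0.702 for KRT86, and for the luminal keratins it was 0.450 for KRT19, 0.0822 for KRT8 and -0.124 for KRT18. The percentage of counts on mitochondrially encoded genes, a sign of RNA quality, had an r of -0.728. It was 5.60 in WT DMSO replicate 1 against 4.61 and 4.39 in the other WT DMSO libraries, and 5.58 in PARP1 KO niraparib replicate 3 against 4.93 and 4.64. It did not follow the score everywhere. WT olaparib replicate 3 had 5.57 against 4.88 and 4.86, with a score of -0.0577. In PARP1 KO with DMSO the highest percentage, 5.02, was in replicate 3, at a score of 0.249. The summed fibroblast markers, almost all COL1A1, were highest within their group in each of the 4 libraries at the low end. They were at 129.5 CPM in WT DMSO replicate 1 and 153.7 in WT niraparib replicate 2. In PARP1 KO they were at 133.9 in niraparib replicate 3 and 124.7 in olaparib replicate 3. The part of either in the keratin values was not tested. Where leaving out the 4 libraries takes a member across the threshold, its value without them is given. This leaves 2 libraries in each of their 4 groups. They were picked after seeing the data, by a score that several members follow, so the spread of those members shrinks by construction and an adjusted P after it is a description.

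**Figure D1:**
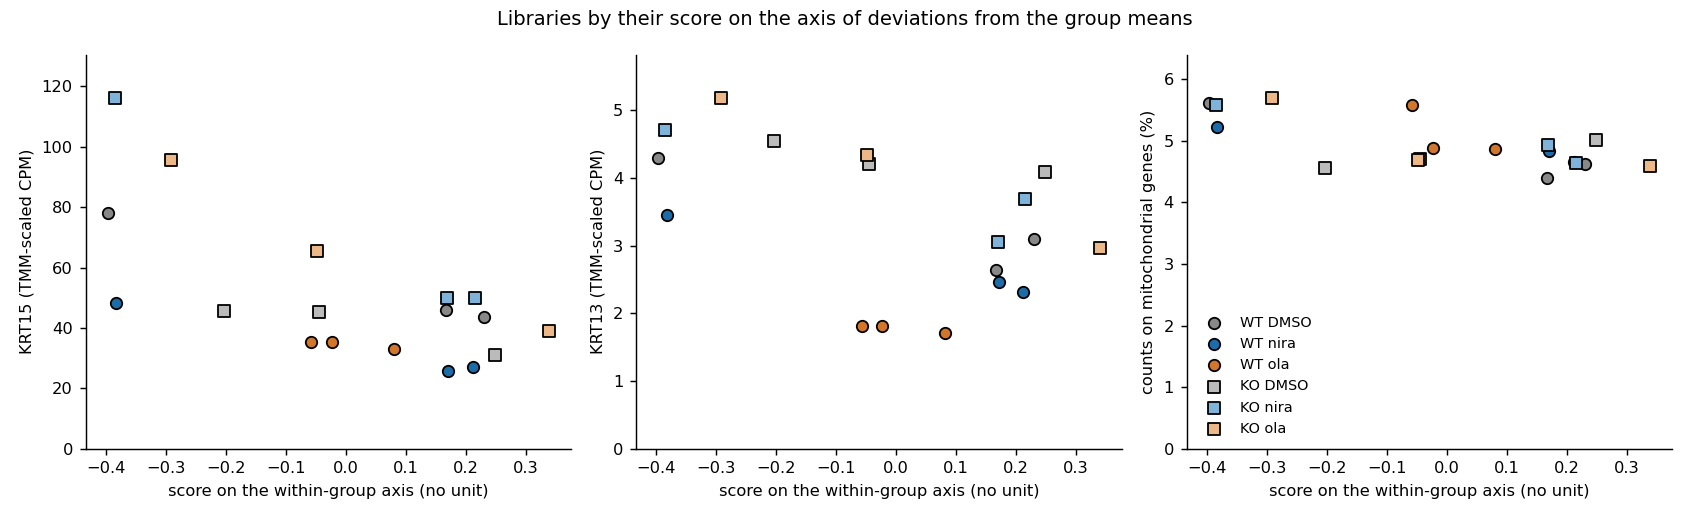
KRT15 and KRT13 (CPM) and mitochondrially encoded counts (%) in each of the 18 libraries, as points, against the library's score on the first component of variation between replicates; colors and symbols mark the 6 groups and there are no error bars. Libraries with the lowest scores, such as PARP1 KO niraparib replicate 3 with 116 CPM of KRT15, hold more KRT15 than the others of their group.

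The order of levels was that of a luminal line. TPM, a scaled count divided by gene length, allows genes to be compared. The length was that of all annotated exons, 6881 bases for KRT8, 3069 for KRT18 and 2336 for KRT19. In TPM KRT19 led with a mean of 5573 over the 18 libraries (4661 to 6678). KRT18 was at 2415 (2017 to 2898) and KRT8 at 1895 (1423 to 2413). By CPM, without length, KRT8 was at 3461 on average, KRT19 at 3449 and KRT18 at 1964. The order of these luminal keratins thus depended on the length used. In TPM KRT23, a type I keratin, followed at 202 (151 to 232). Next were the type II keratins KRT80 at 150.1 (93.5 to 276) and KRT7 at 135 (113 to 186). KRT15, a basal keratin, was at 31.9 TPM (17.1 to 72.2), the hair keratin KRT86 at 12.4 (9.56 to 17.2), and KRT13, a keratin of stratified epithelia without a cornified layer, at 4.34 (2.20 to 6.55). The hair keratin KRT81 was at 0.242 TPM (0.0507 to 0.573), with 1 to 9 counts a library, so its differences are not read further. KRT23 was above KRT80 in 15 of the 18 libraries and KRT80 above KRT7 in 10, so these neighbors changed places. The 3 libraries with KRT80 above KRT23 were those of WT with niraparib (260, 276 and 264 against 169.6, 151 and 180.0 TPM), and KRT23 was higher in all 15 others. All other neighbors kept their order in all 18, although the ranges of KRT18 and KRT8, and of KRT15 and KRT86, overlapped across groups. KRT81 and KRT86 are near-identical, and a read with several alignments was counted at its primary one, so their split is uncertain. Processed copies took few reads: 51 KRT8 pseudogenes held 1.27% of the counts of KRT8 and its pseudogenes, 67 KRT18 pseudogenes 0.348%, and 5 KRT19 pseudogenes 0.0726%.

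**Figure D2:**
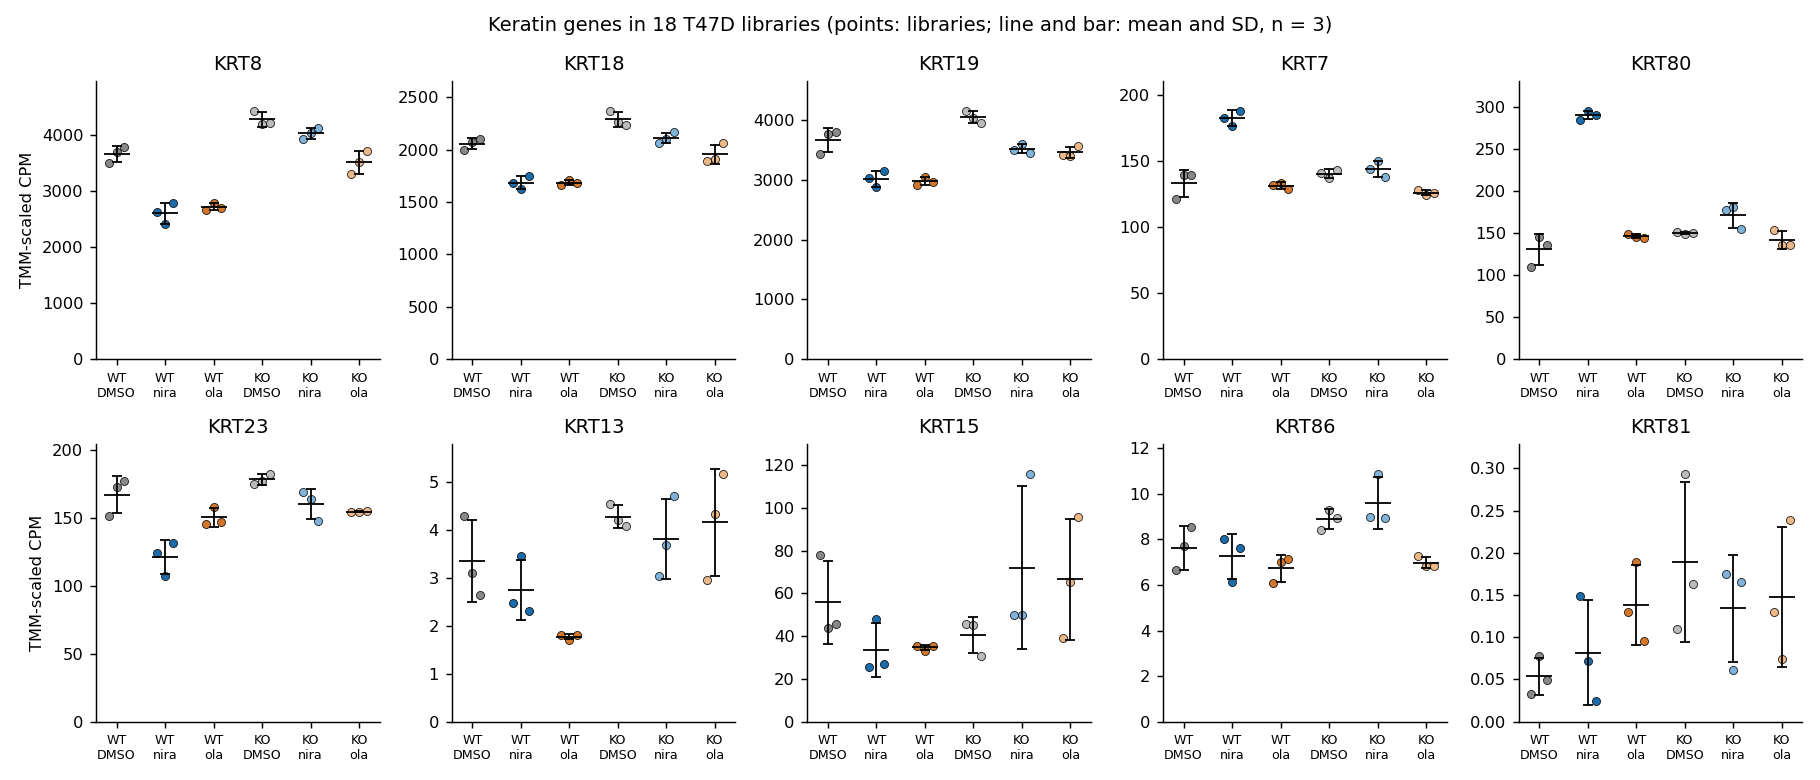
Level of each of the 10 keratins (CPM with TMM-scaled library totals) in the 3 libraries of each of the 6 groups, as points, with group mean ± SD as bars. KRT80 stands at 285 to 296 CPM in WT cells with niraparib and at no more than 181 CPM in every other library.

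With niraparib, WT cells held more RNA of the type II keratins KRT80 and KRT7 and less of the luminal keratins KRT8, KRT18 and KRT19 and of KRT23. KRT80 is an epithelial keratin found near desmosomes and the cell edge, and KRT7 marks glandular and ductal epithelia.

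KRT80 was at 109.8, 146 and 136 CPM in WT with DMSO and at 285, 296 and 291 CPM with niraparib. All 3 niraparib libraries were above all 3 DMSO libraries. The log2 fold change (log2FC; 1 is a doubling) was 1.15 (standard error 0.08, 95% interval 0.98 to 1.32), with an adjusted P = 1.12e-07 (edgeR, adjusted over all genes tested). KRT7 was at 121, 139 and 139 CPM with DMSO and at 183, 176 and 188 CPM with niraparib. Again every niraparib library was above every DMSO library, with a log2FC of 0.45 (standard error 0.05, adjusted P = 4.18e-07).

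KRT8 was at 3491, 3689 and 3773 CPM in WT with DMSO and at 2621, 2403 and 2776 CPM with niraparib. The groups did not overlap, and the log2FC was -0.49 (standard error 0.06, adjusted P = 3.00e-07). KRT18, its type I partner, was at 1999, 2072 and 2104 CPM with DMSO and at 1679, 1628 and 1750 CPM with niraparib. All 3 libraries with niraparib were lower (log2FC -0.29, standard error 0.05, adjusted P = 4.46e-05). KRT19, the smallest keratin and the other luminal type I partner, was at 3431, 3763 and 3810 CPM with DMSO and at 3030, 2881 and 3145 CPM with niraparib. It too fell in 3 of 3 libraries (log2FC -0.28, standard error 0.05, adjusted P = 2.16e-04). KRT23 was at 151, 173 and 178 CPM with DMSO and at 124, 108 and 132 CPM with niraparib. No niraparib library reached the lowest DMSO library (log2FC -0.47, standard error 0.07, adjusted P = 1.32e-04).

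Called genes are those that pass 0.05 on the adjusted P and differ more than 1.5-fold. By that rule 1 of 10 members, KRT80, was called higher and 0 lower, a share near the 13.8% called among all 22446 genes. On the adjusted P alone, 2 rose and 4 fell, where 38.0% of all genes passed. The median log2FC was -0.27 over the members and -0.02 over all genes. KRT15 was at 78.1, 43.6 and 45.9 CPM with DMSO and at 25.7, 48.2 and 27.1 CPM with niraparib. Its groups overlapped through WT niraparib replicate 2, and its log2FC of -0.71 did not pass (standard error 0.33, adjusted P = 0.147). Without WT niraparib replicate 2 it was called lower (-1.07, adjusted P = 0.0362). That library is among the 4 that stand apart, so leaving it out shrinks the spread of KRT15 and this P is a description. Without the 4 libraries that stand apart, with 2 libraries against 2, its log2FC was -0.76. No P is given for KRT15 there, since the score that picked those libraries follows KRT15 itself. KRT13 (log2FC -0.26, adjusted P = 0.334) and KRT86 (-0.09, adjusted P = 0.65) did not pass.

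**Figure D3:**
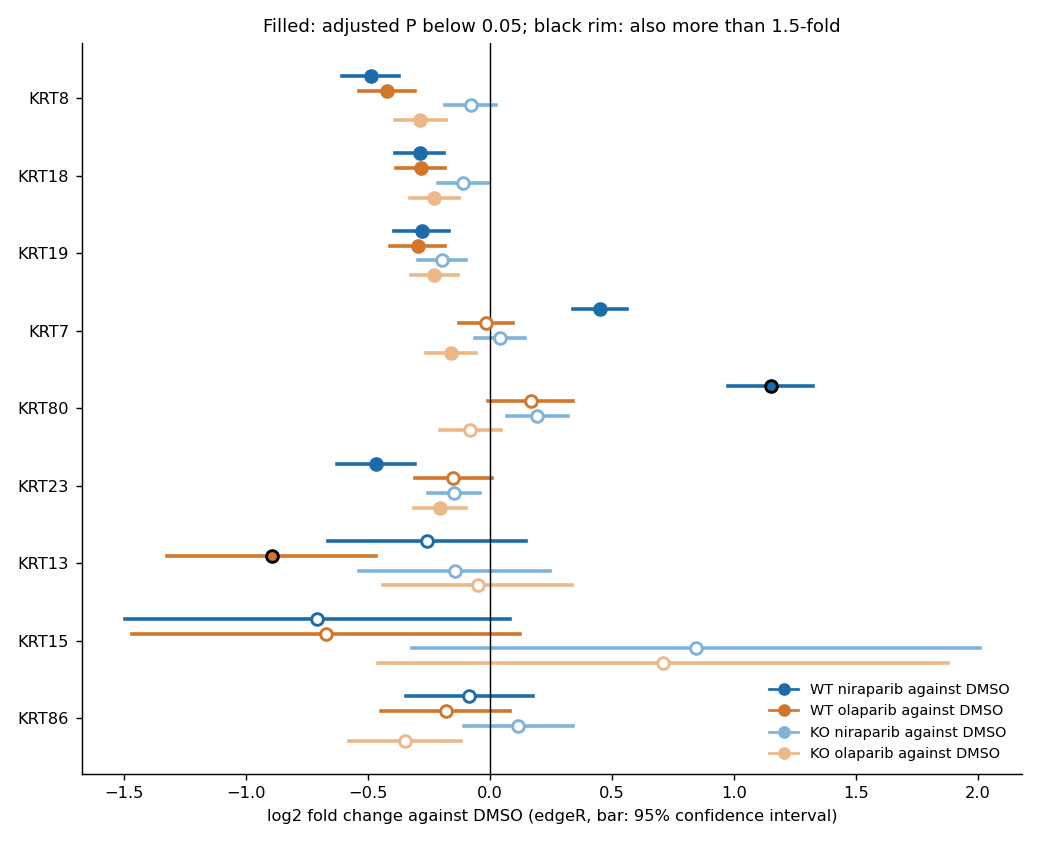
Log2 fold change of 9 keratins against DMSO (points) with 95% interval (bars) for niraparib and olaparib in WT and in PARP1 KO cells; filled points have an adjusted P below 0.05 and a black rim marks called genes. KRT80 with niraparib is at 1.15 in WT and at 0.19 in PARP1 KO, while KRT8 is below 0 in all 4 comparisons.

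With olaparib, which shares its DMSO libraries with niraparib, the luminal keratins KRT8, KRT18 and KRT19 were again lower in WT cells, and KRT80 and KRT7 had intervals that held 0. KRT8 was at 2659, 2786 and 2701 CPM with olaparib, below its 3 DMSO libraries, with a log2FC of -0.42 (standard error 0.06, adjusted P = 1.25e-05). KRT18 was at 1659, 1713 and 1682 CPM, again below every DMSO library (log2FC -0.29, standard error 0.05, adjusted P = 1.99e-04). KRT19 was at 2922, 3051 and 2960 CPM (log2FC -0.30, standard error 0.05, adjusted P = 4.13e-04), with no overlap with DMSO.

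KRT13 was at 4.30, 3.10 and 2.64 CPM in WT with DMSO and at 1.81, 1.71 and 1.81 CPM with olaparib. The groups did not overlap, the DMSO libraries spread more widely than the olaparib libraries, and all values rest on 57 to 199 counts a library over the 18 libraries. The log2FC was -0.90 (standard error 0.21, 95% interval -1.33 to -0.47, adjusted P = 0.00345), and -0.70 without the 4 libraries that stand apart. No P is given for KRT13 there, since it follows the score that picked those libraries. KRT80 was at 149.5, 146 and 144.5 CPM with olaparib, which overlapped with DMSO (log2FC 0.17, 95% interval -0.01 to 0.34, adjusted P = 0.186). Its log2FC was 0.06 (adjusted P = 0.255) without the 4 libraries. It passed at 0.26 (adjusted P = 0.0147) without WT DMSO replicate 2 and at 0.16 (adjusted P = 0.013) with no filter on low counts. KRT7 was at 131, 134 and 129 CPM (log2FC -0.02, 95% interval -0.13 to 0.09, adjusted P = 0.861). KRT15 was at 35.5, 33.2 and 35.4 CPM, below all 3 DMSO libraries, and its log2FC of -0.67 did not pass (95% interval -1.47 to 0.12, adjusted P = 0.235). Without the 4 libraries the log2FC of KRT15 was -0.36.

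Of the 10 members, 1 (KRT13) was called lower with olaparib and 0 higher, where 4.04% of all genes were called. By the adjusted P alone 4 fell and 0 rose, where 19% of all genes passed. The median log2FC was -0.23 over the members and -0.02 over all genes. KRT86 (log2FC -0.18, adjusted P = 0.365) did not pass. KRT23 did not pass either (log2FC -0.15, adjusted P = 0.189). It passed with no filter on low counts (-0.16, adjusted P = 0.0174) and without WT DMSO replicate 1 (-0.22, adjusted P = 0.0233), below 1.5-fold each time. Without the 4 libraries that stand apart the log2FC of KRT23 was -0.22. No P is given for KRT23 there, since it follows the score that picked those libraries.

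The compounds were also compared directly at the same dose and time in WT cells. KRT80, KRT7 and KRT13 were higher with niraparib than with olaparib and KRT23 was lower, while the luminal keratins did not differ. KRT80 was above its olaparib libraries in all 3 niraparib libraries, with a log2 difference of 0.98 (standard error 0.08, 95% interval 0.81 to 1.16, adjusted P = 8.17e-07). For KRT7 the log2 difference was 0.47 (standard error 0.05, adjusted P = 4.18e-07), again in 3 of 3 libraries. KRT23 was at 146, 158.5 and 147 CPM with olaparib, above all niraparib libraries, with a log2 difference of -0.32 (standard error 0.07, adjusted P = 0.004). KRT13 was at 2.47, 3.46 and 2.32 CPM with niraparib, above its 3 olaparib libraries. Its log2 difference of 0.64 was called (standard error 0.21, adjusted P = 0.0209), but this call turned on single libraries. It was 0.43 (adjusted P = 0.084) without the 4 libraries that stand apart, 0.43 (adjusted P = 0.162) without WT niraparib replicate 2, and 0.66, 0.61 and 0.65 (adjusted P = 0.057, 0.0719 and 0.055) without olaparib replicates 1, 2 and 3.

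Between the compounds, 2 of 10 members (KRT80 and KRT13) were called higher with niraparib and 0 lower, where 8.95% of all genes were called. With the adjusted P alone 3 were higher and 1 lower, where 32.2% of all genes passed. The median log2 difference was 0.01 over the members and 0.02 over all genes. The 95% interval of the log2 difference was -0.18 to 0.05 for KRT8, -0.10 to 0.10 for KRT18 and -0.10 to 0.13 for KRT19. For KRT15 it ran from -0.84 to 0.77. Without the 4 libraries KRT15 had a log2 difference of -0.40.

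In PARP1 KO cells with niraparib, no keratin of the list passed the edgeR test with all libraries and the filter on low counts. KRT19 passed in 2 of 16 alternatives. KRT80 was at 151.5, 149 and 150.4 CPM in PARP1 KO with DMSO and at 178, 181 and 154 CPM with niraparib. All 3 niraparib libraries were above DMSO, the third by less than 5 CPM, and the log2FC was 0.19 (95% interval 0.07 to 0.32, unadjusted P = 0.0041, adjusted P = 0.27). Without the libraries that stand apart, of which PARP1 KO niraparib replicate 3 is one, it was 0.26, below 1.5-fold. KRT80 passed the threshold only there. No P is given for it, since KRT80 follows the score that picked those libraries. KRT19 was at 4158, 4045 and 3955 CPM with DMSO and at 3499.8, 3602 and 3457 CPM with niraparib. These groups did not overlap, and the log2FC of -0.20 (95% interval -0.29 to -0.10) had an adjusted P of 0.115, and with no filter on low counts KRT19 passed (-0.21, adjusted P = 0.0115). KRT8 was at 4425, 4185 and 4202 CPM with DMSO and at 3926, 4022 and 4123 CPM with niraparib, with a log2FC of -0.08 (95% interval -0.19 to 0.03, adjusted P = 0.682). KRT7 was at 141, 137 and 143 CPM with DMSO and at 144, 149.9 and 138 CPM with niraparib, which overlapped (log2FC 0.04, 95% interval -0.06 to 0.14). KRT15 was at 45.8, 45.2 and 30.9 CPM with DMSO and at 50.1, 49.8 and 116 CPM with niraparib. The high value is that of replicate 3, and the log2FC of 0.84 (95% interval -0.32 to 2.01, adjusted P = 0.682) became 0.30 without the libraries that stand apart.

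By edgeR 0 of 10 members were called in PARP1 KO with niraparib, where 0.0136% of 22037 genes were called, and 0 passed the adjusted P alone, where 0.109% of all genes passed. At an unadjusted P below 0.05 there were 4 (KRT18, KRT19, KRT23 and KRT80), where 9.14% of all genes were. DESeq2, another test for counts, called 0 and passed 1 at the adjusted P alone, KRT19 (log2FC -0.20, adjusted P = 0.00421). The median log2FC was -0.10 over the members and 0.01 over all genes.

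With olaparib, PARP1 KO cells held less RNA of the luminal keratins, of KRT23 and of KRT7, each by less than 1.5-fold, though KRT23 and KRT7 turned on single libraries. KRT8 was at 3299, 3506 and 3707 CPM, below its 3 DMSO libraries (log2FC -0.29, standard error 0.05, adjusted P = 0.00141). KRT18 was at 2371, 2259.7 and 2235 CPM with DMSO and at 1892, 1909 and 2062 CPM with olaparib, without overlap (log2FC -0.23, standard error 0.05, adjusted P = 0.00543). KRT19 was at 3411, 3397 and 3571 CPM, below its DMSO libraries in 3 of 3 (log2FC -0.23, standard error 0.05, adjusted P = 0.00378). KRT23 and KRT7, the less abundant of the 5, were lower in all 3 libraries too. KRT23 was at 175, 177 and 183 CPM with DMSO and at 154, 154.5 and 155.5 CPM with olaparib (log2FC -0.21, standard error 0.05, adjusted P = 0.0147). It missed the threshold without olaparib replicate 2 (adjusted P = 0.0519) or DMSO replicate 2 (adjusted P = 0.0782) or 3 (adjusted P = 0.09). KRT7 was at 128, 124 and 126 CPM with olaparib (log2FC -0.16, standard error 0.05, adjusted P = 0.0453). It missed the threshold whichever of the 6 libraries was left out (adjusted P from 0.0551 to 0.185), and in a fit of only those 6 (adjusted P = 0.0536). With the replicate number as a block KRT7 missed it too (adjusted P = 0.0818).

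By edgeR 0 of 10 members were called in PARP1 KO with olaparib, where 0.803% of all genes were called, and DESeq2 also called 0. On the adjusted P alone 5 fell and 0 rose, where 8.29% of all genes passed, and 6 had an unadjusted P below 0.05, as had 21.1% of all genes. The median log2FC was -0.22 over the members and 0.01 over all genes. KRT86 was next, at 8.41, 9.30 and 8.96 CPM with DMSO and 7.25, 6.83 and 6.85 CPM with olaparib (log2FC -0.35, adjusted P = 0.0517). KRT86 passed by DESeq2 (adjusted P = 0.0438), with filterByExpr (adjusted P = 0.0441), with no filter (adjusted P = 0.0404), with TMM factors from other genes than keratins (adjusted P = 0.0464) and with KRT81 added to it (adjusted P = 0.0488). KRT80 had a log2FC of -0.08 (95% interval -0.21 to 0.04) and KRT13 one of -0.05. KRT15 was at 38.9, 65.5 and 95.5 CPM with olaparib, with the highest value in replicate 3 (log2FC 0.71, and 0.36 without the libraries that stand apart).

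Directly compared in PARP1 KO cells, niraparib left more KRT86, KRT80, KRT8 and KRT7 RNA than olaparib. KRT86 was at 8.97, 10.9 and 8.92 CPM with niraparib, above every olaparib library (log2 difference 0.46, standard error 0.11, adjusted P = 0.00823). KRT80 was at 154, 136 and 136 CPM with olaparib, so that its highest olaparib library nearly met its lowest niraparib library (log2 difference 0.27, standard error 0.06, adjusted P = 0.00511). For KRT8 the log2 difference was 0.21 (standard error 0.05, adjusted P = 0.0116), and for KRT7 it was 0.20 (standard error 0.05, adjusted P = 0.0103), each in 3 of 3 libraries. All 4 missed the threshold without niraparib replicate 2, KRT86 at 0.36 (adjusted P = 0.0765), KRT80 at 0.23 (adjusted P = 0.0506), KRT8 at 0.21 (adjusted P = 0.0546) and KRT7 at 0.17 (adjusted P = 0.0798). KRT8 also missed it without olaparib replicate 1 (adjusted P = 0.0555) and in a fit of only the libraries compared (0.19, adjusted P = 0.0515), and KRT18 passed without olaparib replicate 3 (0.16, adjusted P = 0.0473). By edgeR and by DESeq2 0 of 10 members were called, where 1.07% of all genes were called by edgeR. With the adjusted P alone 4 were higher with niraparib and 0 lower, where 10.0% of all genes passed, and 5 had an unadjusted P below 0.05, as had 22.1% of all genes. The median log2 difference was 0.13 over the members and 0.00 over all genes.

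Between the genotypes with DMSO, 1 member passed the test, and this turned on single libraries. Every PARP1 KO library with DMSO held more KRT8 than every WT library with DMSO (log2 difference 0.23, standard error 0.05, 95% interval 0.12 to 0.33, adjusted P = 0.0193). It missed the threshold without PARP1 KO replicate 1 (0.20, adjusted P = 0.115) or 2 (0.24, adjusted P = 0.0676) or WT replicate 1 (adjusted P = 0.155). With the replicate number as a block KRT8 missed it too (0.23, adjusted P = 0.174). KRT18 (log2 difference 0.15, adjusted P = 0.0985), KRT19 (0.14, adjusted P = 0.143) and KRT80 (0.20, adjusted P = 0.261) did not pass. Without the 4 libraries that stand apart KRT18 passed (0.13, adjusted P = 0.0373) and KRT80 was at 0.09 (adjusted P = 0.383), while KRT80 passed with no filter on low counts (0.20, adjusted P = 0.0117). By edgeR 0 of 10 members were called between genotypes, where 0.146% of 24675 genes were called. By the adjusted P alone 1 was higher in PARP1 KO and 0 lower, where 1.39% of all genes passed, and 5 had an unadjusted P below 0.05, as had 13.6% of all genes. DESeq2 called 0 and passed 3 at the adjusted P alone (KRT8, KRT18 and KRT19). The median log2 difference was 0.18 over the members and -0.00 over all genes.

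The difference between genotypes in the response to each compound was tested as an interaction over all 18 libraries, where a value below 0 means a lower log2FC in PARP1 KO than in WT. For niraparib, KRT80 had the largest difference among the members that passed, at -0.96 on the log2 scale (standard error 0.11, 95% interval -1.20 to -0.73, adjusted P = 1.86e-06). All 3 WT libraries with niraparib were above all 3 PARP1 KO libraries with niraparib. KRT7, also higher with niraparib in WT, had a difference of -0.42 (standard error 0.07, adjusted P = 2.45e-05). KRT8, lower with niraparib in WT, had one of 0.40 (standard error 0.07, adjusted P = 5.96e-05), and KRT23 one of 0.31 (standard error 0.09, adjusted P = 0.0106). KRT19 did not pass (0.08, 95% interval -0.06 to 0.22, adjusted P = 0.481). KRT18 was close to the threshold (0.17, 95% interval 0.04 to 0.31, adjusted P = 0.0572). It passed by DESeq2 (0.18, adjusted P = 0.00822), with filterByExpr (adjusted P = 0.0305), with RLE factors (adjusted P = 0.0442), without the libraries that stand apart (0.15, adjusted P = 0.0332), and without PARP1 KO DMSO replicate 1 (adjusted P = 0.0435) or WT DMSO replicate 1 (adjusted P = 0.036). KRT15 had a difference of 1.54 that did not pass (standard error 0.58, adjusted P = 0.0811), and one of 1.06 without the libraries that stand apart. DESeq2 called KRT15 (1.57, adjusted P = 0.0275), as did edgeR without WT niraparib replicate 2 (1.91, adjusted P = 0.0439). That library is among those that stand apart, so the latter P is a description.

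For niraparib 1 of 10 members (KRT80) was thus called for a lower and 0 for a higher response in PARP1 KO, where 8.88% of all genes were called. With the adjusted P alone 2 were lower and 2 higher, where 22.9% of all genes passed. The median difference was 0.14 over the members and 0.03 over all genes. For olaparib 0 of 10 members were called by edgeR and by DESeq2, where 0.657% of all genes were called by edgeR. None passed the adjusted P alone, where 2.27% of all genes passed, and 3 had an unadjusted P below 0.05, as had 15.7% of all genes. KRT13 came nearest, with a difference of 0.85 on the log2 scale (95% interval 0.26 to 1.43, adjusted P = 0.117). It was 0.47 (adjusted P = 0.399) without the libraries that stand apart, and was called at 1.04 (adjusted P = 0.0248) without PARP1 KO olaparib replicate 1. KRT13 was at 4.55, 4.21 and 4.08 CPM in PARP1 KO with DMSO and at 2.96, 4.34 and 5.18 CPM with olaparib, so those groups overlapped. For KRT8 the olaparib difference was 0.14 (95% interval -0.01 to 0.29), and for KRT80 it was -0.24 (adjusted P = 0.29). Without the libraries that stand apart KRT80 was at -0.10 (adjusted P = 0.468). With no filter on low counts KRT80 passed (-0.24, adjusted P = 0.037) and KRT13 was called (0.85, adjusted P = 0.0264). The median difference was 0.00 over the members and 0.01 over all genes.

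Seen as a whole, the 10 keratins took about 1% of all counts, nearly all of it from KRT8, KRT18 and KRT19 (91.6% to 95.4% of member counts). Their share of library counts was 0.978 ± 0.0429% in WT with DMSO (mean ± SD, 3 libraries a group), 0.839 ± 0.0295% with niraparib and 0.780 ± 0.0163% with olaparib. In PARP1 KO it was 1.10 ± 0.0315% with DMSO, 1.02 ± 0.0240% with niraparib and 0.922 ± 0.0475% with olaparib. Every treated library was below every DMSO library of its genotype. The ratio of type I to type II RNA, from summed TPM, was 3.87 ± 0.00676 in WT with DMSO, 3.83 ± 0.0626 with niraparib and 4.06 ± 0.00559 with olaparib. In PARP1 KO it was 3.68 ± 0.0476, 3.41 ± 0.0452 and 3.79 ± 0.0850 in the same order. The direction for WT with niraparib depended on the scale: by CPM without length the ratio was 1.58 against 1.52 with DMSO. Within the luminal pair, KRT18 over KRT8 by TPM was 1.26 ± 0.0171 in WT with DMSO, 1.46 ± 0.0552 with niraparib and 1.39 ± 0.0111 with olaparib. In PARP1 KO the same ratio was 1.20 ± 0.00903, 1.18 ± 0.00494 and 1.25 ± 0.0328. The WT libraries with either compound stood above all WT libraries with DMSO in this ratio, KRT8 having fallen by more than KRT18. By CPM without length KRT18 was below KRT8. That ratio was 0.564 in WT with DMSO, 0.649 with niraparib and 0.621 with olaparib. In PARP1 KO it was 0.536, 0.525 and 0.558 in the same order. The level of both ratios thus depended on the length used. TMM factors were from 1.05 to 1.08 in WT with niraparib and from 0.968 to 1.005 elsewhere. The share is of unscaled library totals, and scaling would lower it in WT with niraparib relative to the other groups. The shares of WT with niraparib and with olaparib are therefore not ranked.

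**Figure D4:**
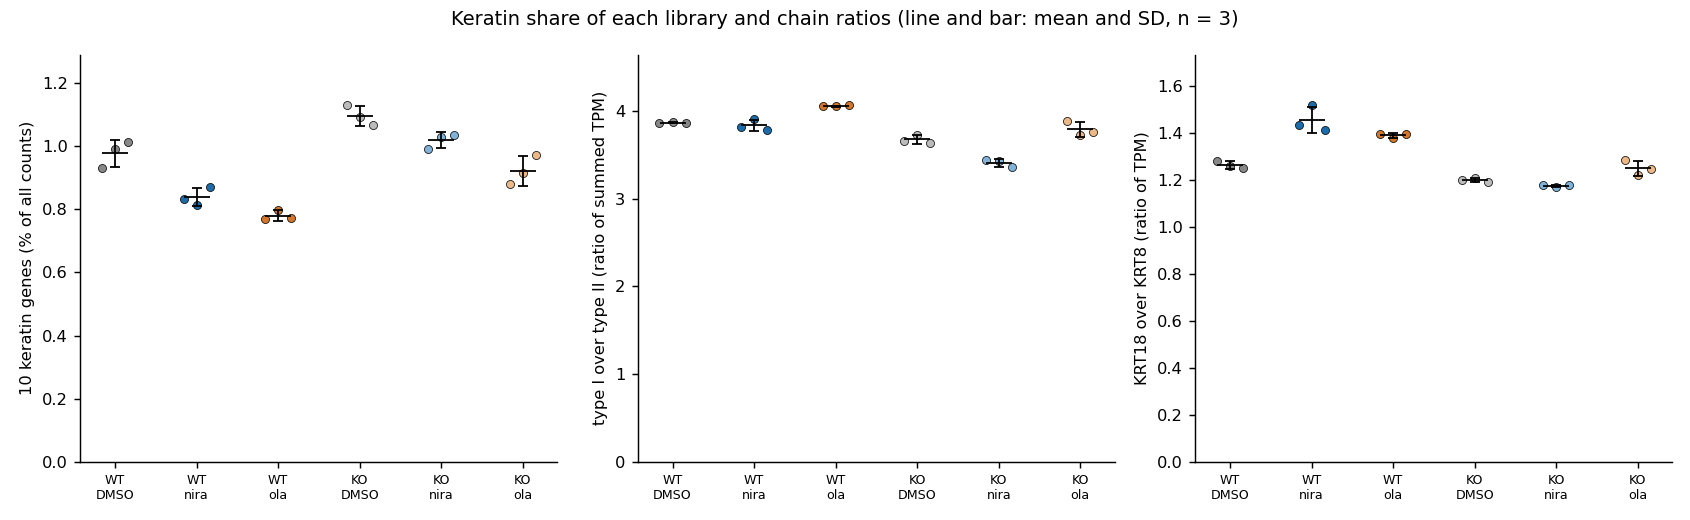
Share of library counts on the 10 keratins (%), ratio of type I to type II keratins and ratio of KRT18 to KRT8 (both from TPM) in each library, as points, with group mean ± SD. The share is of library totals without TMM scaling, with a mean of 0.780% in WT cells with olaparib. The KRT18 to KRT8 ratio is highest in WT cells with niraparib (1.46).

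Of 45 other keratin genes, 7 had no count in any library and 2 had a mean of at least 1 CPM, KRT10 at 81.4 and KRT4 at 2.31. The 5 that were called in any comparison (KRT16, KRT17, KRT20, KRT33A and KRT222) were all below 1 CPM on average. KRT17, a keratin of basal and injured epithelium, had 1, 9 and 6 counts in WT with DMSO (0.0333, 0.174 and 0.150 CPM) and 70, 163 and 106 counts with niraparib (2.08, 2.94 and 2.62 CPM). With olaparib it had 13, 14 and 2 counts, and in PARP1 KO no library had more than 11. The WT niraparib libraries stood above all others, with a log2FC of 4.27 against DMSO (standard error 0.41, adjusted P = 3.21e-08) and 3.23 against olaparib (standard error 0.37, adjusted P = 6.88e-07). Its niraparib response was lower in PARP1 KO by the interaction test (-3.84 on the log2 scale, standard error 0.79, adjusted P = 3.03e-04).

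In WT with niraparib 4 of 17 other keratins tested were called higher and 1 lower, with a median log2FC of 0.03, where 13.8% of all genes were called. Beside KRT17 these were the intestinal keratin KRT20 (log2FC 2.81, standard error 0.82, adjusted P = 0.00987), KRT16, a keratin of activated epidermis (1.43, standard error 0.51, adjusted P = 0.0309), KRT222 (1.33, standard error 0.46, adjusted P = 0.0256, groups overlapping) and KRT33A, a hair keratin (-2.63, standard error 0.63, adjusted P = 0.00192). The calls of KRT16, KRT20 and KRT222 turned on single libraries, while KRT17 and KRT33A kept theirs in every setting tried with this threshold. Without the 4 libraries that stand apart, KRT16 was at 0.97 (adjusted P = 0.236) and KRT222 at 0.72 (adjusted P = 0.292). KRT16 also missed the threshold by DESeq2 (adjusted P = 0.0589) and on leaving out WT niraparib replicate 2 (1.01, adjusted P = 0.204) or 3, or any WT DMSO library (adjusted P from 0.0526 to 0.0728). KRT222 missed it without WT niraparib replicate 2 (0.96, adjusted P = 0.167) or WT DMSO replicate 1 (adjusted P = 0.0716) or 3 (adjusted P = 0.11), and KRT20 missed it without WT niraparib replicate 1 (2.39, adjusted P = 0.0604). With olaparib in WT 0 of 17 were called by edgeR, beside 4.04% of all genes. On the adjusted P alone 1, KRT10, passed (log2FC -0.17, adjusted P = 0.0246), beside 19% of all genes. KRT10 passed there in 12 of 16 alternatives.

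Between niraparib and olaparib in WT, 2 of 17 other keratins were called higher, beside 8.95% of all genes called (KRT17 and KRT16, the latter at 2.35, adjusted P = 0.00276) and 1 lower (KRT33A, -1.88, adjusted P = 0.0354). KRT33A missed the threshold without WT olaparib replicate 1 (-1.49, adjusted P = 0.176) or 3 (adjusted P = 0.0505), and without WT niraparib replicate 1 (adjusted P = 0.073) or 3 (adjusted P = 0.123), and in a fit of only the libraries compared (adjusted P = 0.0563). In PARP1 KO 0 of 16 were called in any comparison between treatments. Of all genes, 0.0136% were called there with niraparib, 0.803% with olaparib and 1.07% between the compounds. With olaparib KRT10 passed the adjusted P alone (log2FC -0.22, adjusted P = 0.0278), beside 8.29% of all genes. It passed there in 11 of 16 alternatives. Between genotypes with DMSO and in the olaparib interaction 0 of 22 were called, beside 0.146% and 0.657% of all genes. In the niraparib interaction, where 8.88% of all genes were called, 2 of 22 were called lower in PARP1 KO (KRT17 and KRT222, the latter at -2.48, standard error 0.68, adjusted P = 0.00576) and 1 higher (KRT33A, 2.73, standard error 0.88, adjusted P = 0.0197). KRT222 missed the threshold without the 4 libraries that stand apart (-1.78, adjusted P = 0.0972), and KRT33A missed it without them (2.43, adjusted P = 0.12), without PARP1 KO niraparib replicate 3 (2.18, adjusted P = 0.103), WT niraparib replicate 3 (2.37, adjusted P = 0.0661) or WT DMSO replicate 1 (adjusted P = 0.0516).

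Genes that anchor or bind keratin filaments were counted as lists, to be read beside the share of all genes called. That share was 13.8% in WT with niraparib, 4.04% with olaparib and 8.95% between the compounds. In PARP1 KO it was 0.0136% with niraparib, 0.803% with olaparib and 1.07% between the compounds. Between genotypes it was 0.146% with DMSO, 8.88% in the niraparib interaction and 0.657% in the olaparib interaction.

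By the adjusted P alone the share of all genes was 38.0% in WT with niraparib, 19% with olaparib and 32.2% between the compounds. In PARP1 KO it was 0.109%, 8.29% and 10.0% in the same order, and between genotypes 1.39% with DMSO, 22.9% in the niraparib interaction and 2.27% in the olaparib interaction. At an unadjusted P below 0.05 it was 44.8%, 30.2% and 39.8% in WT, 9.14%, 21.1% and 22.1% in PARP1 KO, and 13.6%, 32.4% and 15.7% between genotypes.

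Desmosomes join the keratin networks of neighboring cells. In WT with niraparib 1 of 15 desmosome and plakin genes tested was called higher and 0 lower, beside 13.8% of all genes called. By the adjusted P alone 5 rose and 7 fell, where 38.0% of all genes passed (median log2FC 0.02). The called gene was the cadherin DSC1 (log2FC 1.23, standard error 0.37, adjusted P = 0.0105), lost without WT niraparib replicate 1 (1.004, adjusted P = 0.0638). DSC1 was low, at 0.385 CPM on average with DMSO and 0.955 CPM with niraparib. DSP, which ties keratins to the desmosome and was the most abundant of the list, fell from 927 to 678 CPM on average (log2FC -0.45, standard error 0.05, adjusted P = 3.05e-07). In the niraparib interaction 0 of 16 were called by edgeR, 9 had an unadjusted P below 0.05, and by the adjusted P alone 7 were higher in PARP1 KO and 2 lower, with DSP at 0.47 (adjusted P = 1.92e-06). In the other comparisons 0 desmosome genes were called. By the adjusted P alone, 1 rose and 3 fell in WT with olaparib (median -0.04), and 4 were higher and 6 lower with niraparib than with olaparib (median 0.03). In PARP1 KO 0 passed with niraparib (median 0.05) and 1 rose with olaparib (median 0.06), which was DSP (log2FC 0.21, adjusted P = 0.0084). Between the compounds in PARP1 KO 1 was higher and 1 lower with niraparib, the latter DSP (-0.18, adjusted P = 0.0163). None passed between genotypes with DMSO, where 4 of 16 had an unadjusted P below 0.05. In the olaparib interaction 2 were higher (with DSP at 0.31, adjusted P = 0.0115).

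No hemidesmosome gene was called in any of the 9 comparisons by edgeR (6 or 7 tested). On the adjusted P alone 1 rose and 3 fell in WT with niraparib, beside 38.0% of all genes (median log2FC -0.09), among them ITGB4, the integrin that binds the keratin network through plectin (-0.12, adjusted P = 0.0391), and 3 rose and 1 fell with olaparib, beside 19% (median 0.15). In WT 3 were lower with niraparib than with olaparib, beside 32.2%. In PARP1 KO 0 passed with niraparib, 2 rose and 1 fell with olaparib, and 0 passed between the compounds. Between genotypes 0 passed with DMSO, 2 were higher in the niraparib interaction and 0 passed in the olaparib interaction. Unadjusted P values below 0.05 were held by 4 of 6 in WT with niraparib, 4 of 6 with olaparib and 1 of 6 in PARP1 KO with niraparib.

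Of 6 keratin-binding proteins, 1 was called higher in WT with niraparib and 0 lower beside 13.8% of all genes (3 rose and 2 fell by the adjusted P alone, beside 38.0%, median 0.10). This was FBF1, a keratin-binding protein of cell junctions and cilia (log2FC 0.63, adjusted P = 4.99e-04), which was under 1.5-fold without WT niraparib replicate 2 (0.49) or WT DMSO replicate 2 (0.57). FAM83H, which organizes keratin filaments and led the list in abundance, rose by less than 1.5-fold (log2FC 0.20, adjusted P = 7.54e-04), and its niraparib interaction was -0.26. In all other comparisons 0 were called by edgeR. By the adjusted P alone 2 rose and 1 fell in WT with olaparib, 3 were higher and 2 lower between the compounds, 0 passed in PARP1 KO with niraparib, 1 fell with olaparib, 1 was higher and 2 lower in the niraparib interaction, and 0 passed in the rest.

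Intermediate filament genes outside the keratins were mostly too low to test, with 4 of 10 tested in WT. With niraparib 2 were called higher and 0 lower, beside 13.8% of all genes (median log2FC 0.63), SYNM (1.05, adjusted P = 0.00112) and NES (0.96, adjusted P = 6.25e-04), which encode large filament proteins of muscle and of progenitor cells. SYNM was at 0.898 CPM on average with DMSO and 1.90 CPM with niraparib, and NES at 1.79 and 3.55 CPM. PRPH, the most abundant, had a log2FC of 0.17. With olaparib 1 of 4 was called higher, NES (0.86, adjusted P = 0.0049), and between the compounds SYNM was called higher with niraparib (0.73), a call lost without WT olaparib replicate 2 (adjusted P = 0.051) or 3 (0.57, adjusted P = 0.109) or WT niraparib replicate 1 (adjusted P = 0.0697) or 3 (adjusted P = 0.0589). In PARP1 KO 0 of 4 were called in any comparison, and 0 of 5 between genotypes or in either interaction.

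The cornified envelope is the protein shell of terminally differentiated keratinocytes. Of its genes, 3 of 12 tested were called higher and 0 lower in WT with niraparib, beside 13.8% of all genes (median log2FC 0.86). Genes entered by counts summed over the 9 libraries of a genotype, so a gene high in a single group can enter through that group. With 12 tested in WT and 9 in PARP1 KO, the medians are not compared. The called genes were SPRR1A (3.76, adjusted P = 7.74e-06), the cross-linking enzyme TGM1 (0.67, adjusted P = 6.05e-04) and the envelope precursor IVL (0.62, adjusted P = 4.69e-04). SPRR1A was low, at 0.101 CPM on average in WT with DMSO, 1.37 CPM with niraparib and 0.0734 CPM with olaparib. TGM1 was at 0.53 without WT niraparib replicate 2 and 0.58 without WT DMSO replicate 2, and IVL at 0.52 without WT niraparib replicate 3 and 0.51 without WT DMSO replicate 1, all under 1.5-fold. With olaparib 1 of 12 was called higher, TGM1 (0.74, adjusted P = 7.19e-04; median 0.37), and between the compounds SPRR1A was higher with niraparib (4.15, adjusted P = 7.98e-06). In PARP1 KO 0 of 9 were called with niraparib by edgeR (1 at an unadjusted P below 0.05, median -0.01), and with olaparib 1, TGM1 (0.65, adjusted P = 0.0175; median -0.05). Between the compounds in PARP1 KO IVL was higher with niraparib (0.63, adjusted P = 0.00144) and TGM1 lower (log2 difference -0.67, adjusted P = 0.0128). With DMSO 0 of 13 were called between genotypes, where IVL passed the adjusted P alone (0.49, adjusted P = 0.0351). In the niraparib interaction 1 of 13 was called lower in PARP1 KO, TGM1 (-0.68, adjusted P = 0.0231), and in the olaparib interaction 0. The calls in PARP1 KO and in the interaction turned on single libraries. TGM1 with olaparib in PARP1 KO was lost without olaparib replicate 2 (adjusted P = 0.0937) or DMSO replicate 2 (0.54, adjusted P = 0.116) or 3 (adjusted P = 0.082). Between the compounds, TGM1 was lost without niraparib replicate 1 or 2 or olaparib replicate 2 (adjusted P from 0.0615 to 0.0838), and IVL was under 1.5-fold without niraparib replicate 2 (0.53) or olaparib replicate 3 (0.55). The TGM1 interaction was lost on leaving out any of 6 single libraries (adjusted P from 0.0561 to 0.139).

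Of 14 transcription factors of epithelia, 4 were called higher and 2 lower in WT with niraparib, where 13.8% of all genes were called (7 rose and 5 fell by the adjusted P alone, beside 38.0%, median log2FC 0.18). Higher were KLF4 (1.14, adjusted P = 8.41e-09), the basal regulator TP63 (0.78, adjusted P = 0.00307) and the epithelial factor ELF3 (0.75, adjusted P = 1.29e-04). Lower were the luminal regulator GATA3 (-0.74, adjusted P = 5.99e-11) and TFAP2A (-0.67, adjusted P = 4.73e-10). With olaparib 2 of 14 were called higher and 0 lower (4 rose and 6 fell by the adjusted P alone, beside 19%, median -0.04), KLF4 (0.73, adjusted P = 2.87e-05) and KLF5 (0.66, adjusted P = 0.00345; 0.56 without WT DMSO replicate 2). GATA3 fell by less than 1.5-fold (log2FC -0.28, adjusted P = 2.04e-04). Between the compounds 1 was called higher with niraparib, TP63 (0.72).

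In PARP1 KO 0 of 14 factors were called with niraparib by edgeR (1 at an unadjusted P below 0.05), with olaparib (6) or between the compounds (3), and 0 between genotypes with DMSO (6). In the niraparib interaction 2 of 14 were called higher in PARP1 KO, GATA3 (0.71, adjusted P = 5.49e-10) and TFAP2A (0.67, adjusted P = 2.01e-09), and 4 lower, with TP63 at -1.11 (adjusted P = 0.00344), KLF4 at -1.08 (adjusted P = 9.33e-07) and KLF5 at -0.99 (adjusted P = 0.00101). In the olaparib interaction 0 were called and 3 were higher in PARP1 KO by the adjusted P alone, among them GATA3 (0.32, adjusted P = 0.00655). Whether any of these factors acts on the keratin genes was not tested.

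The genes most like KRT80 over the 6 group means, out of 13519 at 1 CPM or more, were PEPD (Pearson r 0.999), TMEM43 (0.999) and PVR (0.998). Their log2FC with niraparib in WT was 0.17, 0.76 and 1.16, beside 1.15 for KRT80. With only 6 means, 707 genes had an r above 0.95.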

How the data were processed

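The authors deposited raw counts of reads per gene for 18 libraries, after mapping to hg38 with STAR and counting with featureCounts 2.0.0 on Ensembl release 96. Reads on exons of more than 1 gene of a strand were not counted.

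Each fit kept genes whose counts summed to more than 10. The test was the robust quasi-likelihood F test of edgeR 4.0.16 (R 4.3.3), with TMM scaling and Benjamini-Hochberg adjustment over all genes. Comparisons within a genotype used its 9 libraries, and those across genotypes all 18. Python 3.11.15 with pandas 2.3.3, numpy 2.4.6 and scipy 1.17.1 made the summaries, and matplotlib 3.10.9 the figures. The code was tested on simulated data, and replicates were checked for repeated deposits.

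Library totals ran from 28890837 to 52251288 (median 37363326.5). Standard errors hold counting and replicate spread; levels of genes with few counts, such as KRT81 and KRT17, are imprecise.

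Alternatives were RLE factors, TMM without keratins, other filters, the replicate number as a block, DESeq2 1.42.0, other libraries in the fit, other thresholds, KRT81 and KRT86 summed, each library left out and, added after seeing the data, the 4 libraries that stand apart left out. Named genes were the 10 members, PARP1, other keratins called in any comparison or at 1 CPM on average, up to 3 called genes a direction and the most abundant of each list, and the 3 genes most like a called member. Members and lists were chosen with earlier results of these data known. No sequence is shown.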

Additional observations from a re-analysis of the deposited data

Results flagged for a closer look

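Each of the following responses to niraparib differed between WT and PARP1 KO by the interaction test over 18 libraries (edgeR), given as the log2 difference of PARP1 KO from WT. KRT80 differed by -0.96 (adjusted P = 1.86e-06). KRT7 differed by -0.42 (adjusted P = 2.45e-05). KRT8 differed by 0.40 (adjusted P = 5.96e-05). KRT23 differed by 0.31 (adjusted P = 0.0106). Among keratins below 1 CPM on average, KRT17 differed by -3.84 (adjusted P = 3.03e-04), KRT222 by -2.48 (adjusted P = 0.00576) and KRT33A by 2.73 (adjusted P = 0.0197). KRT222 missed the threshold without the 4 libraries that stand apart (adjusted P = 0.0972). KRT33A missed it without them (adjusted P = 0.12) and without 3 single libraries in turn (adjusted P from 0.0516 to 0.103).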

How the results depend on the processing

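Over 30 settings, 149 of 171 counts of called members were as in the report, and no log2 value that passed the test changed its sign. A sign other than that of the report appeared in 29 of 1512 refits, in 13 of 90 member values, none past the threshold. The limits are 3 libraries a group, 1 knockout line, and low counts of KRT81, KRT13 and the other keratins below 1 CPM, where depth bounds what can be seen. The cause of the changes below was not tested, except that a stricter or looser threshold changes counts by its construction.

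By the adjusted P alone, members passing were 6 in WT with niraparib, 4 in WT with olaparib, 4 between the compounds in WT, 5 in PARP1 KO with olaparib, 4 between the compounds in PARP1 KO, 1 between genotypes with DMSO and 4 in the niraparib interaction. With an absolute log2 change above 1.5 required as well, 0 members were called in WT with niraparib, in WT with olaparib, between the compounds in WT and in the niraparib interaction.

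Without the 4 libraries that stand apart, a setting added after seeing the data, members called were 2 in WT with niraparib and 1 between the compounds in WT. The first count rests on KRT15, whose spread that setting shrinks by construction. With DESeq2, 2 were called in the niraparib interaction. Without a filter on low counts, 1 was called in the olaparib interaction (KRT13), and members that passed the adjusted P there and not in the report's fit were KRT23 and KRT80 in WT with olaparib, KRT19 and KRT86 in PARP1 KO with niraparib and olaparib respectively, KRT80 between genotypes with DMSO, and KRT13 and KRT80 in the olaparib interaction. Over all genes, calls in PARP1 KO with niraparib were 24 without the filter, 8 with DESeq2, 7 without the 4 libraries and 6 with all 18 libraries in a fit, against 3 in the report. Without the filter they were 102 against 36 between genotypes with DMSO and 346 against 162 in the olaparib interaction. With a library left out they went as low as 5 between genotypes with DMSO. In PARP1 KO with olaparib they were 100 against 177 without DMSO replicate 2. Between the compounds in PARP1 KO they were 144 against 236 without niraparib replicate 2.

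On leaving out each library in turn, members called ranged from 1 to 2 in WT with niraparib, from 1 to 2 between the compounds in WT, from 1 to 2 in the niraparib interaction and from 0 to 1 in the olaparib interaction; elsewhere the count did not change. By CPM without length, the type I to type II ratio relative to DMSO was 1.04 in WT with niraparib and 1.07 in WT with olaparib.

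Replicate numbers did not pair the libraries: 6 of 18 correlations between same-numbered libraries were over 0.1 (-0.617 to 0.639) and 5 libraries correlated best with their own number. With the number as a replicate block, members called were 1 in WT with niraparib, 1 in WT with olaparib, 2 between the compounds in WT, 1 in the niraparib interaction and 0 in the other comparisons, as without it. On the adjusted P alone, KRT8 between genotypes with DMSO (adjusted P = 0.174) and KRT7 in PARP1 KO with olaparib (adjusted P = 0.0818) missed the threshold with the block. Over all genes, calls with the block were 2920 against 3102 in WT with niraparib, 812 against 907 in WT with olaparib and 19 against 36 between genotypes with DMSO.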
